A study of Homo sapiens with 4 samples.

Results

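Transcripts of the ATF4 amino acid stress response and of the aminoacyl-tRNA synthetases were described in cells of LS180, an established line of human colon carcinoma, with and without the RNA-binding protein RBM35A (now named ESRP1, an epithelial regulator of splicing). The genes were taken from a list of 35 by name, 18 of the stress response and 17 synthetases. Of these, 28 had a probe set with exactly 1 gene symbol on the HG-U95Av2 array and 26 reached a log2 level of 5, used here as the floor, on at least 1 array. They stand among 8225 genes on the array and 3588 that reached the floor. Where a gene had several probe sets, the one with the highest average level was read.

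The study compared 4 samples, 1 array each: total RNA of RBM35A- cells, total RNA of RBM35A+ cells, polysomal RNA of RBM35A- cells and polysomal RNA of RBM35A+ cells. It asked what RBM35A expression changes in total mRNA and in mRNA loaded on polysomes, the ribosome-bearing fraction of a sucrose gradient. RBM35A+ cells were Tet-off LS180-RBM35A cells, in which the protein is made once doxycycline is withdrawn, kept without it for at least 6 days. RBM35A- cells were grown with doxycycline. They are labelled as parental, with no word on whether the construct is present in them, nor on whether the line is 1 clone. Doxycycline and RBM35A therefore cannot be told apart. Polysomal extracts had been treated with cycloheximide and cleared of nuclei, whereas total RNA was taken with TRIZOL, and both the extraction and the labelled molecule (polyA RNA or total RNA) change with the fraction.

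With 1 array per group no test was made and no difference below has a p-value. Values are log2 levels as deposited, and differences are log2 differences between arrays. The error was taken from how far several probe sets of 1 gene disagreed: on this basis the SD of the difference of 1 probe set was 0.20 for RBM35A+ minus RBM35A- in total RNA (411 genes) and 0.19 in polysomal RNA (390 genes). It covers probes and not cultures.

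When amino acids run short, uncharged tRNA activates the kinase GCN2, which phosphorylates the initiation factor eIF2. General initiation then slows, while the ATF4 mRNA, which carries upstream open reading frames, is translated more. ATF4 protein pairs with C/EBP factors on composite elements and switches on genes that make amino acids, import them and charge them to tRNA, along with stress regulators such as DDIT3.

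The composite element was searched in RefSeq promoter windows (GRCh38.p14, 250 bases before to 50 after the start) as TGATGNAA on either strand, its reverse complement being TTNCATCA. Of the 35 genes, 28 had a window. A match lay in 4 of 14 stress response genes and in 7 of 14 synthetases. Per promoter, the shares were 17.4% (4 of 23) and 36.8% (7 of 19), against 3.62% of all 35116 promoters and 2.18% of the 4626 promoters of genes measured on these arrays. The exact form TGATGCAA lay in 6 of the 19 synthetase promoters, in 1 of the 23 stress response promoters and in 0.866% of all promoters. The genes were listed by name as belonging to this response, so a share above that of all promoters is not an independent result. Most genes had no match: of the measured genes with a window, 8 held one and 12 did not. Those 8 are shown because the measured values are later divided by this element. Each line reads 5′ to 3′ along the gene, with the match in capitals.

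ASNS (chr7:97872458-97872487, minus strand): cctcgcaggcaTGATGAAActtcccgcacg

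SLC3A2 (chr11:62881725-62881748, plus strand): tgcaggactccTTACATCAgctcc

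CARS1 (chr11:3057407-3057436, minus strand): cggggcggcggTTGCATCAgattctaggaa

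IARS1 (chr9:92293692-92293721, minus strand): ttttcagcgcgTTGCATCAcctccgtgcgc

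AARS1 (chr16:70289675-70289704, minus strand): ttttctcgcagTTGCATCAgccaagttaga

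GARS1 (chr7:30594834-30594863, plus strand): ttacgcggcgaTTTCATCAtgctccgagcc

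NARS1 (chr18:57621804-57621833, minus strand): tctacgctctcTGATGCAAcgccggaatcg

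TARS1 (chr5:33440956-33440985, plus strand): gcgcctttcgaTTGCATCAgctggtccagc

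The ASNS match began 68 bases before the annotated start, and those of CARS1, IARS1 and TARS1 lay within 13 bases of it. The AARS1 match was the most distant of the 8, at 187 bases upstream. ATF3, CHAC1 and MARS1 also held a match but gave no measured level. A match is a description of letters and not evidence of binding.

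The floor was reached by 33.8% of 12626 probe sets in either total RNA sample and by 34.2% in either polysomal sample. Of 15 markers of colon epithelium, 14 were at or above the floor on all arrays, EPCAM and VIL1 among them, while COL1A1 was the 1 detected of 9 fibroblast and endothelial markers on the array, in polysomal RNA only, and HBB the 1 of 8 haematopoietic ones. No probe set (0) with exactly 1 symbol carried that of ESRP1, and those with several symbols were not searched for it. RBM35A itself was therefore not read here and the labels alone give the state. Controls at the 5′ ends of beta-actin and GAPDH differed by −4.51 and −1.83 between polysomal and total RNA of RBM35A- cells, against −0.30 and −0.16 at the 3′ ends. Between the polysomal arrays, RBM35A+ minus RBM35A-, the 5′ controls were at −0.87 and −0.79 and the 3′ ones at −0.02 and −0.13. Those at the middle of the 2 transcripts were at −0.44 and −0.33. Where the probes of each gene lie on its transcript was not used here, and the part of this 5′ difference in the results below was not tested.

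Among the stress response genes, 13 of 18 were measured. ATF3 lay under the floor on all 4 arrays, at 2.23 to 2.24. TRIB3, CHAC1, PSAT1 and ALDH18A1 had no probe set with 1 symbol. Among the synthetases 13 of 17 were measured as well: HARS1 lay under the floor, between 2.86 and 4.05, and LARS1, MARS1 and QARS1 had no probe set with 1 symbol. PSPH and SLC7A11 passed the floor in total RNA only, and the other 24 genes were above it on all 4 arrays. Levels of different genes come from different probes and were not compared with each other.

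**Figure D1:**
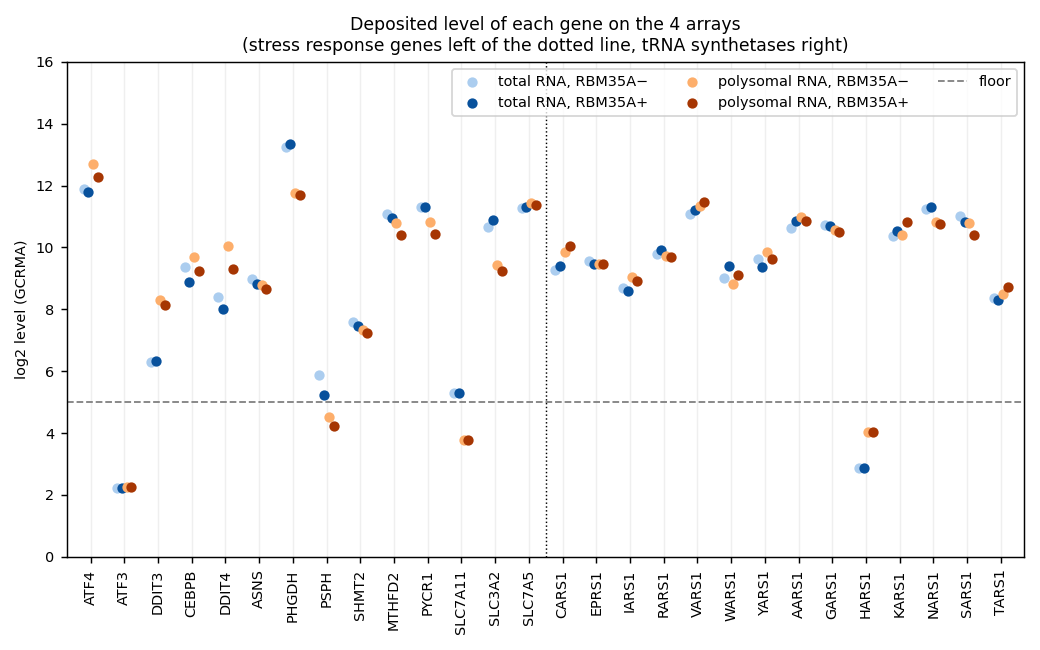
Log2 level (GCRMA, vertical axis) of the 28 genes found on the array, with 1 point for each of the 4 arrays and the floor of 5 as a dashed line. ATF3 and HARS1 lie under the floor on every array, PSPH and SLC7A11 cross it between the fractions, and the ATF4, DDIT3 and DDIT4 points of polysomal RNA lie above those of total RNA.

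In polysomal RNA the stress response genes lay lower in RBM35A+ than in RBM35A- cells. All 11 with a polysomal level had a difference below 0 and 0 were above it, against 42.8% below and 56.4% above of the 3391 genes measured there. Their median was −0.19, against 0.02 over those genes. The differences ran from −0.73 for DDIT4 to −0.07 for PHGDH. Only DDIT4 passed 1.5-fold (1 lower and 0 higher of 11), where 1.3% of all genes were that much lower and 0.767% that much higher. Most single differences were thus small, and 6 of the 11 were smaller than the SD of 1 probe set. In bulk extracts such as these, fewer cells with a transcript and less of it per cell cannot be told apart.

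The regulators come first. ATF4, the transcription factor that gives the response its name, read 12.71 in polysomal RNA of RBM35A- cells and 12.27 in that of RBM35A+ cells, and 11.90 and 11.80 in total RNA. Its difference was −0.44 in polysomal RNA, 1.36-fold, and −0.11 in total RNA. In polysomal RNA ATF4 was the 96th lowest of 3391 genes and in total RNA the 1026th lowest of 3320. The polysomal difference exceeded the SD of 1 probe set, while the total RNA difference was under it.

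CEBPB, a C/EBP factor that partners ATF4, was lower in both fractions. Without and with RBM35A it read 9.36 and 8.88 in total RNA and 9.68 and 9.23 in polysomal RNA. The differences were −0.48 and −0.45, so that total and polysomal RNA differed by the same amount within 0.03. CEBPB was the 59th lowest gene in total RNA and the 93rd lowest in polysomal RNA. DDIT3, also called CHOP, a stress-induced C/EBP family member, read 6.30 and 6.33 in total RNA and 8.31 and 8.15 in polysomal RNA, with differences of 0.03 and −0.16. Its other probe set gave −0.22 and −0.15, so the 2 probe sets differed in sign in total RNA and not in polysomal RNA.

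DDIT4, or REDD1, an inhibitor of the growth kinase mTORC1, had the lowest polysomal difference of all members. Its level was 10.03 in polysomal RNA of RBM35A- cells and 9.30 in that of RBM35A+ cells, a difference of −0.73 or 1.65-fold, the 18th lowest of 3391 genes. In total RNA it read 8.39 and 8.02, a difference of −0.37 and the 145th lowest of 3320. A further DDIT4 probe set lay under the floor on every array.

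The enzymes of amino acid synthesis were split by size. PYCR1, which makes proline, read 10.82 and 10.42 in polysomal RNA of RBM35A- and RBM35A+ cells and 11.31 and 11.30 in total RNA, so its difference was −0.39 in polysomal RNA and −0.01 in total RNA. MTHFD2, a mitochondrial enzyme of one-carbon metabolism, read 10.78 and 10.40 in polysomal RNA and 11.08 and 10.94 in total RNA, with differences of −0.38 and −0.14. These 2 mitochondrial enzymes ranked 139th and 156th lowest in polysomal RNA.

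The other synthesis enzymes lay nearer 0. ASNS, which makes asparagine, was at −0.11 in polysomal RNA and −0.15 in total RNA, and SHMT2, the mitochondrial serine hydroxymethyltransferase, at −0.11 and −0.13. PHGDH was at −0.07 and 0.12. None of these 6 values exceeded the SD of 1 probe set.

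PSPH, the phosphatase that ends serine synthesis, was the 1 stress response gene past 1.5-fold in total RNA. It read 5.86 in RBM35A- and 5.22 in RBM35A+ cells, a difference of −0.64, and lay under the floor on both polysomal arrays, at 4.52 and 4.23. Its probe set is of a class with sequence shared between transcripts, and its other probe set lay under the floor throughout. The value is therefore uncertain as to gene and rests on levels just above the floor.

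Of the transporters, SLC3A2, the shared heavy chain of several amino acid exchangers, went from 10.66 without to 10.87 with RBM35A in total RNA, but from 9.42 to 9.23 in polysomal RNA. Its difference was 0.21 in total and −0.19 in polysomal RNA, each about the size of the SD of 1 probe set and of opposite sign. SLC7A5, the light chain that pairs with SLC3A2 to import large neutral amino acids, differed by 0.04 and −0.08. SLC7A11, the cystine light chain, read 5.30 on both total RNA arrays and lay under the floor in polysomal RNA.

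In total RNA the stress response genes were mixed: 9 of 13 lay below 0 and 4 above, against 49.3% and 50.3% of 3320 genes, with a median of −0.11 against 0.00 over all genes. The 9 included SLC7A11, which read 5.30 on both arrays, and PSPH, just above the floor. With a floor of 6, which leaves out both, 7 of 11 lay below 0 and 4 above. At 1.5-fold 1 was lower (PSPH) and 0 were higher, where 0.663% of all genes were that much lower and 1.54% that much higher. The difference between the 2 RBM35A differences, polysomal minus total, was below 0 for 8 of 11 genes and above 0 for 3, against 49.5% and 50.5% of 3123 genes, with a median of −0.19. It was lowest for SLC3A2 (−0.40), PYCR1 (−0.38), DDIT4 (−0.36) and ATF4 (−0.34), and near 0 for CEBPB (0.03), ASNS (0.04) and SHMT2 (0.02). The SD of 1 probe set for this quantity was 0.24, and 0 of the 11 passed 1.5-fold, where 2.4% of all genes were that much lower and 1.02% that much higher.

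**Figure D2:**
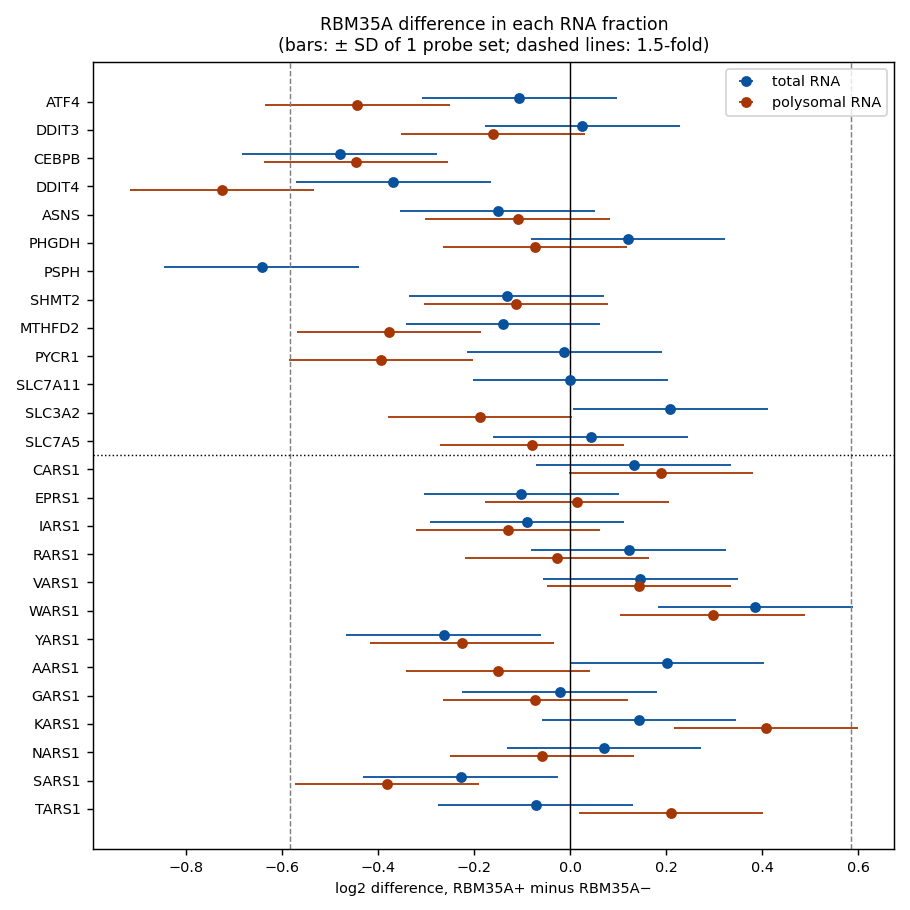
Log2 difference between RBM35A+ and RBM35A- cells (horizontal axis) for the 26 measured genes in total and polysomal RNA, with bars of 1 SD of a single probe set and dashed lines at 1.5-fold. The polysomal points of all 11 stress response genes with a polysomal level lie left of 0, down to −0.73 for DDIT4, whereas the synthetase points lie on both sides.

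The synthetases lay on both sides of 0. In polysomal RNA 7 of 13 lay below 0 and 6 above, with a median of −0.03, against 42.8% and 56.4% of all genes. In total RNA 6 lay below and 7 above, with a median of 0.07, against 49.3% and 50.3%. At 1.5-fold 0 were higher and 0 lower in either fraction, a count near the background, where 1.54% of all genes were that much higher and 0.663% lower in total RNA and 0.767% and 1.3% in polysomal RNA. The SD over the 13 genes was 0.18 in total and 0.22 in polysomal RNA, close to the SD of 1 probe set and to the SD over all genes (0.23 and 0.22). Whether the synthetases differ from the stress response genes was not tested, with 1 array per group.

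The highest synthetase in polysomal RNA was KARS1, which charges lysine and belongs to the multi-synthetase complex. It read 10.40 and 10.81 in polysomal RNA of RBM35A- and RBM35A+ cells, a difference of 0.41 and the 126th highest of 3391, and 10.37 and 10.52 in total RNA, a difference of 0.14. WARS1, the tryptophan enzyme, which interferon also induces, was the highest in total RNA and high in both fractions. It read 9.00 and 9.39 in total RNA and 8.81 and 9.11 in polysomal RNA, so its differences were 0.39 and 0.30. It was the 153rd highest of 3320 genes in total and the 296th highest in polysomal RNA.

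TARS1, for threonine, read 8.50 and 8.71 in polysomal RNA and 8.38 and 8.30 in total RNA, with differences of 0.21 and −0.07. CARS1, for cysteine, read 9.86 and 10.04 in polysomal RNA and 9.25 and 9.39 in total RNA, with differences of 0.19 and 0.13. VARS1, for valine, was at 11.33 and 11.48 in polysomal RNA and at 11.07 and 11.21 in total RNA, a difference that was 0.14 and 0.15. CARS1 and VARS1 were thus slightly higher in RBM35A+ cells in both fractions, by less than the SD of 1 probe set.

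On the lower side stood SARS1 and YARS1, for serine and tyrosine. SARS1 read 10.79 and 10.41 in polysomal RNA, a difference of −0.38 and the 150th lowest of 3391, and 11.03 and 10.81 in total RNA, a difference of −0.23. YARS1 read 9.84 and 9.61 in polysomal RNA and 9.64 and 9.37 in total RNA, with differences of −0.23 and −0.26. Both were lower in both fractions, by more than the SD of 1 probe set in each.

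AARS1, for alanine, differed in sign between the fractions: it read 10.63 and 10.84 in total RNA (0.20) and 10.99 and 10.84 in polysomal RNA (−0.15). The remaining 5 synthetases lay close to 0 in both fractions. EPRS1, the joint glutamate and proline enzyme, was at −0.10 in total and 0.01 in polysomal RNA, IARS1, for isoleucine, at −0.09 and −0.13, and RARS1, for arginine, at 0.12 and −0.03. NARS1, for asparagine, was at 0.07 and −0.06, and GARS1, for glycine, at −0.02 and −0.07 with −0.08 and 0.03 at its other probe set.

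The enzymes fall into 2 structural classes with unrelated catalytic domains. EPRS1 joins an enzyme of each class in 1 protein and was set apart here. The other 6 measured class I enzymes had a median of 0.13 in total RNA and 0.06 in polysomal RNA. For the 6 measured class II enzymes the medians were 0.02 and −0.07. Class I ran from −0.23 for YARS1 to 0.30 for WARS1 in polysomal RNA and class II from −0.38 for SARS1 to 0.41 for KARS1, so the classes overlapped. Ranges with and without the promoter element overlapped too. In polysomal RNA the 6 measured synthetases with a match lay between −0.15 and 0.21 and the 5 without one between −0.38 and 0.41. Among the stress response genes, the 2 with a match, SLC3A2 and ASNS, were at −0.19 and −0.11. The 7 without one ran from −0.73 to −0.07, with a median of −0.38. Of the measured genes, YARS1, VARS1, PSPH, SHMT2, PYCR1 and SLC7A11 had no promoter window.

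Level and the epithelial markers were set beside these values. Among genes with a mean level of 10 or more, 49% were below 0 in polysomal RNA, with a median of 0.00 over 602 genes. The 6 stress response genes of that range had a median of −0.28 while the 6 synthetases had −0.07. From 8 to 10, 46.6% of genes were below 0, with a median of 0.01. The 3 stress response genes there had −0.45 and the 7 synthetases 0.01. From 5 to 8, 39% were below 0, with a median of 0.02, and 2 stress response genes had −0.14. These ranges were set after the values were seen. The markers of colon epithelium were also lower in polysomal RNA of RBM35A+ cells, with 11 of 14 below 0 and a median of −0.21, against 42.8% of all genes below 0, and 9 of 14 above 0 in total RNA with a median of 0.07, against 50.3%. Their summed level, on a log2 scale, was 15.61 and 15.60 in total RNA and 15.17 and 14.95 in polysomal RNA of RBM35A- and RBM35A+ cells. The epithelial markers thus had a polysomal median as low as that of the stress response genes, and the part of either in the other was not tested.

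**Figure D3:**
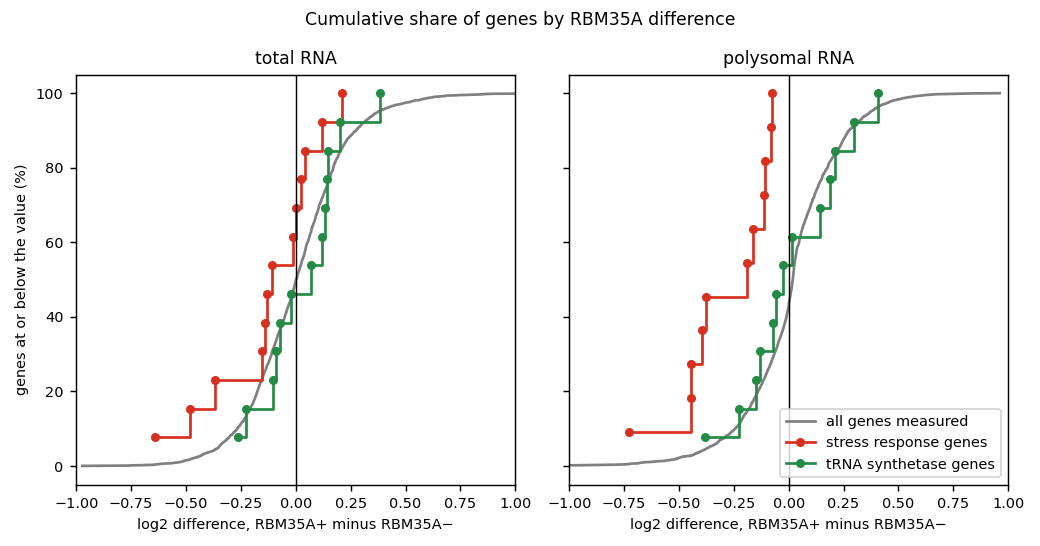
Cumulative share of genes (vertical axis, percent) by RBM35A difference (log2, horizontal axis, shown from −1 to 1) in total and polysomal RNA for all genes measured, the stress response genes and the synthetases. In polysomal RNA the stress response curve reaches 100% below 0, at −0.07, while the synthetase curve follows that of all genes.

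Polysomal and total RNA were next compared within each RBM35A state. The fractions had been normalized apart, so these differences also hold a difference between normalizations, and the 5′ control difference given above moves with them. Over all genes the median was 0.10 in both states. The SD of 1 probe set was 0.71 in RBM35A- and 0.79 in RBM35A+ cells, much larger than within a fraction.

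The stress response genes were divided by role. ATF4, DDIT3, CEBPB and DDIT4, the regulators and the stress effector, were all higher in polysomal than in total RNA in both states. The 5 synthesis enzymes measured in both fractions were all lower in both states. PSPH, the other measured synthesis enzyme, passed the floor in total RNA only, so its sign was fixed by the floor. Of all genes 55.7% were above 0 and 44.3% below in RBM35A- cells, and 56% and 44% in RBM35A+ cells. In RBM35A- cells DDIT3 was at 2.01 (4.02-fold), DDIT4 at 1.64 (3.12-fold), ATF4 at 0.81 (1.75-fold) and CEBPB at 0.32. In RBM35A+ cells the same genes were at 1.82, 1.28, 0.47 and 0.35. CEBPB in both states and ATF4 in RBM35A+ cells lay within the SD of 1 probe set (0.71 and 0.79). The other DDIT3 probe set gave 2.47 and 2.54. DDIT3 and DDIT4 were the 2 of 13 at least 2-fold higher, against 14% of 3541 genes, and DDIT3 ranked 102nd highest in RBM35A- cells.

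At the other end lay PHGDH, at −1.47 in RBM35A- and −1.66 in RBM35A+ cells, and SLC3A2, at −1.24 and −1.63. They were the 2 of 13 at least 2-fold lower, against 8.02% of 3541 genes in RBM35A- and 8.06% of 3537 in RBM35A+ cells, where 14.4% were at least 2-fold higher. PHGDH, the first enzyme of serine synthesis, read 13.23 and 13.35 in total RNA without and with RBM35A and 11.76 and 11.69 in polysomal RNA, the 102nd and 88th lowest of all genes. PYCR1 was at −0.49 and −0.87, MTHFD2 at −0.30 and −0.54, SHMT2 at −0.26 and −0.24 and ASNS at −0.19 and −0.15. These last values lay within the SD of 1 probe set, except PYCR1 in RBM35A+ cells. PSPH gave −0.86 and −0.22 and SLC7A11 −0.30 in both states. These values are lower bounds in size, as the polysomal levels were raised to the floor, while SLC7A5 was at 0.19 and 0.06.

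The synthetases again lay near the middle of all genes. Their median was 0.02 in RBM35A- and 0.01 in RBM35A+ cells, which becomes −0.08 and −0.09 relative to the median of all genes, and 0 of 13 passed 2-fold in either direction in either state. Of all genes 14% were at least 2-fold higher and 8.02% lower in RBM35A- cells, and 14.4% and 8.06% in RBM35A+ cells. The SD over the 13 genes was 0.29 and 0.35, against 0.89 and 0.91 over all genes. CARS1 was highest, at 0.60 and 0.66, and NARS1 lowest, at −0.42 and −0.55.

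**Figure D4:**
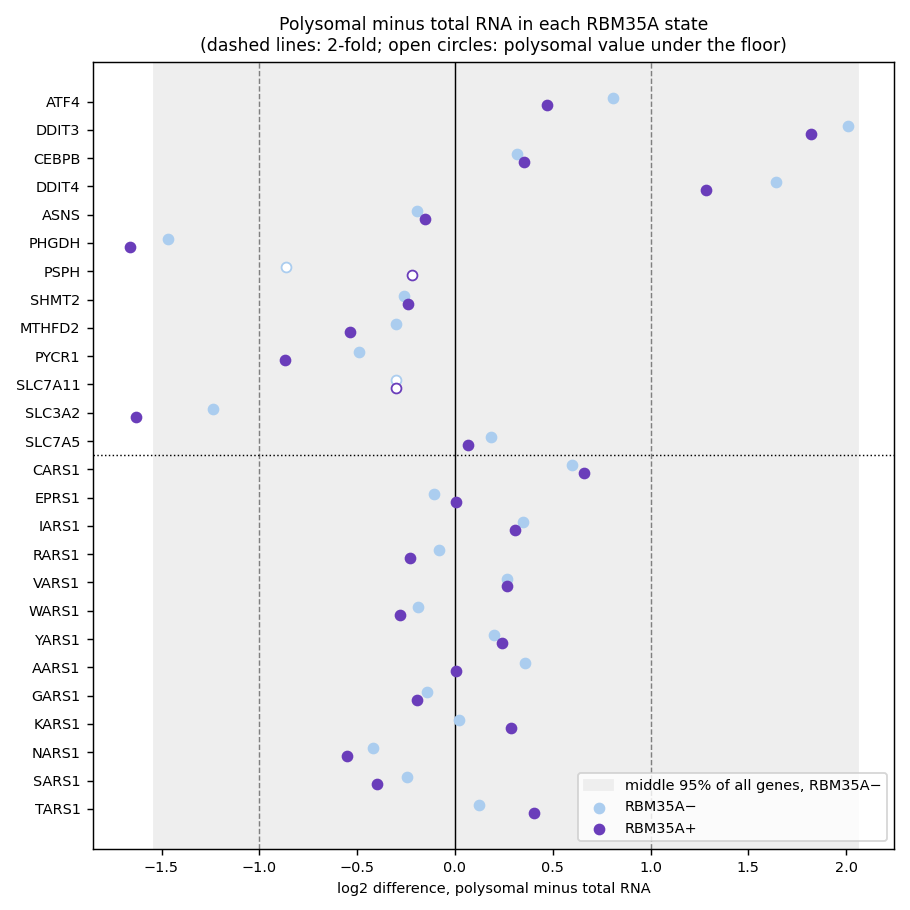
Log2 difference between polysomal and total RNA (horizontal axis) for the 26 measured genes in RBM35A- and RBM35A+ cells, with dashed lines at 2-fold, the middle 95% of all genes of RBM35A- cells shaded and open circles for genes with a polysomal value under the floor. DDIT3, DDIT4, ATF4 and CEBPB lie to the right of 0, the synthesis enzymes to the left, and the synthetases between −0.55 and 0.66.

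Other genes of the pathway were given by lists. Of 23 further ATF4 targets and related stress genes 15 were measured: 12 lay below 0 in polysomal RNA of RBM35A+ cells and 3 above, with a median of −0.11, against 42.8% and 56.4% of all genes. In total RNA 9 lay below and 6 above, with a median of −0.03, against 49.3% and 50.3%. None (0) passed 1.5-fold in either fraction, where 0.663% to 1.54% of all genes did in a given direction. EIF4EBP1, the repressor of cap-dependent initiation, was lowest in both, at −0.46 in total and −0.49 in polysomal RNA, followed in polysomal RNA by the growth arrest gene GADD45A at −0.28. The amino acid transporter SLC1A4 was highest in polysomal RNA, at 0.09, and VEGFA, at −0.03, had the highest polysomal minus total difference of the list (1.74 in both states).

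Of 16 genes of eIF2, its kinases, its phosphatase subunits and its exchange factor eIF2B, 9 were measured. In polysomal RNA 8 gave a difference, 4 below 0 and 4 above, against 42.8% and 56.4% of all genes. The gamma subunit EIF2S3 passed 1.5-fold, as 1.3% of all genes did on the lower side, at −1.10, with −0.06 in total RNA. It read 6.83 and 5.73 in polysomal RNA of RBM35A- and RBM35A+ cells, the latter near the floor. Its polysomal minus total difference was −2.03 and −3.08, and the part of the 5′ control difference in these values was not tested. PPP1R15A, or GADD34, which directs dephosphorylation of eIF2, was at −0.27 in polysomal and 0.04 in total RNA. EIF2B5 was highest in polysomal RNA, at 0.44. The GCN2 activator GCN1 was at 0.11 in total and 0.07 in polysomal RNA.

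Of 16 listed genes of the chaperone and IRE1 or ATF6 branches of the endoplasmic reticulum stress response 8 were measured. In polysomal RNA 6 of them lay above 0, with a median of 0.11, against 56.4% of all genes, and in total RNA 5, with a median of 0.19, against 50.3%. These counts are 75% and 62.5% of the 8 genes, and the medians over all genes were 0.02 and 0.00. Whether this list differs from all genes was not tested. The chaperone HYOU1 was highest in both, at 0.40 in total and 0.55 in polysomal RNA, followed in polysomal RNA by HSPA5, or BiP, at 0.28. None (0) passed 1.5-fold, where 0.663% to 1.54% of all genes did in a given direction. Of 24 further synthetases and complex scaffold genes 7 were measured, and 5 gave a polysomal difference, from −0.22 for YARS2 to 0.35 for LARS2, both mitochondrial enzymes. Of these 5, 3 lay above 0 and 2 below, against 56.4% and 42.8% of all genes, with a median of 0.24 against 0.02. In total RNA 3 lay above and 3 below, against 50.3% and 49.3%, with a median of 0.00. YARS2 read 5.40 and 5.19 in polysomal RNA, near the floor.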

How the data were processed

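RNA of LS180 cells was measured on 4 Affymetrix HG-U95Av2 arrays, 10 µg of RNA each per the labels' protocols. Per the submitters' processing notes, GCRMA (version not given in the sources used here) produced the deposited log2 values. Sorted values were equal within 6.61e-06 inside each fraction's pair of arrays and differed by up to 0.227 between fractions, so each pair had been quantile normalized apart and a shift covering most genes of 1 array would have been removed.

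Of 12626 probe sets, 67 controls were left out. A total of 10943 had 1 gene symbol, 10934 of them brought up to date by gene ID in a RefSeq table of GRCh38.p14, which also gave the promoter sequences, and 546 had several symbols and were left out. Values under a log2 floor of 5 were raised to 5. A difference was taken only where at least 1 array of the pair reached the floor, so the number of genes varies by comparison. Calls were 1.5-fold between RBM35A states and 2-fold between fractions. No test was made, since each group had 1 array. The number of arrays limits the precision. The code was tested on simulated data. Python 3.11.15 with numpy 2.4.6, pandas 2.3.3 and matplotlib 3.10.9 was used.

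The members, lists, motif and rule for named genes were chosen with earlier results of these data known. Values on all 4 arrays were to be given for ATF4, for the 4 members highest and the 4 lowest in each RBM35A difference, and for the 3 highest and 3 lowest between fractions. The alternatives were floors of 4 and 6, no floor, the mean of a gene's probe sets, leaving out probe sets of shared sequence, centring on the median of all genes, and removing the linear trend of the RBM35A difference on the fraction difference.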

Additional observations from a re-analysis of the deposited data

Results flagged for a closer look

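The RBM35A difference had opposite signs in total and polysomal RNA for 9 of the 24 genes measured in both fractions, which is 37.5%, against 39.5% of all 3123 genes. None of these differences between the fractions could be tested with 1 array per group. For 0 of the 9 were both values larger than the SD of 1 probe set, a comparison made after the values were seen. In 7 genes (29.2%) the value was above 0 in total RNA and below 0 in polysomal RNA, as in 17.6% of all genes, and in 2 (8.33%) the order was the opposite, as in 21.9% of all genes. SLC3A2, the heavy chain of amino acid transporters, had the widest gap, with a polysomal minus total value of −0.397 on the log2 scale. The gap was −0.352 for AARS1, −0.194 for PHGDH and −0.187 for DDIT3. It was −0.149 for RARS1, −0.129 for NARS1 and −0.122 for SLC7A5. The threonyl-tRNA synthetase gene TARS1 had the opposite order, with a gap of 0.282, as did EPRS1, with 0.116.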

How the results depend on the processing

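Of the 264 medians and counts of the 2 gene groups under other settings, 259 stayed within the error of the reported value (the SD of 1 probe set over the square root of the number of genes, or 1.5 times for a count). The count of stress response genes 1.5-fold lower in total RNA went from 1 to 0 with a floor of 6, and to 0 without probe sets of shared sequence, since both settings remove PSPH or its difference. The count of those 2-fold lower in polysomal than in total RNA of RBM35A- cells went from 2 to 4 with a floor of 4 and to 4 without a floor. In these settings the polysomal levels of PSPH and SLC7A11 were raised less or not at all. The median polysomal RBM35A difference of the stress response genes went from −0.19 to −0.28 with the linear trend removed. The 11 of 11 below 0 became 12 of 12 with a floor of 4 and 10 of 11 with the trend removed, where PHGDH was at 0.02. Among 821 values of single genes 0 of those past the fold changed sign. No paired analysis was possible because each group had 1 array. Signal near the floor limits PSPH and SLC7A11, and no setting run here stands in for repeated cultures or for the place of a probe set along its transcript.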
